A study of Homo sapiens with 4 samples.

Results

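Integrins and the proteins that join them to the cytoskeleton at focal adhesions were examined as 1 group of 53 genes: 12 integrin alpha subunits, 8 integrin beta subunits, 10 actin linkers and integrin activators, 6 adaptors and scaffolds, 6 kinases, 4 members of the ILK, PINCH and parvin complex, 4 guanine nucleotide exchange factors and 3 small GTPases. The genes were chosen by name, with earlier results of these data known. A probe was counted for a gene when its gene name or its RefSeq transcript on the array was that of the gene. This gave 99 of the 50238 probes. Of the 53 genes, 46 were among the 17652 genes tested. The study compared gene expression in A549 cells, an established human lung adenocarcinoma line, without and with embelin, a plant benzoquinone known as an inhibitor of XIAP. Both groups were kept in medium of reduced serum before treatment. The 2 control samples were untreated (0 µM) and the 2 embelin samples received 15 µM, and RNA was taken at 4 h and hybridized to 1 single-colour array per sample, all on 1 slide and in 1 scan. Nothing in the labels says that the 2 samples of a group came from separate cultures, so the p-values measure only the spread between these samples. With 2 samples against 2, an exact permutation test could not go below p = 0.333, so p-values were taken from limma, which shares the estimate of spread across genes. A bulk measurement cannot tell less RNA per cell from fewer cells that carry it.

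Integrins are receptors of paired alpha and beta subunits that bind the extracellular matrix outside the cell and, through talin, vinculin, alpha-actinin and filamin, the actin network inside it. The site of contact, the focal adhesion, also gathers the kinases FAK (PTK2) and SRC and adaptors such as paxillin, p130Cas (BCAR1) and CRKL, which pass the signal to exchange factors (the VAV proteins, DOCK1) and so to the GTPases RAC1, RHOA and RAP1A. In epithelial tumour cells this system sets attachment, spreading, migration and survival signals from the matrix. Most of its proteins are regulated after translation, which an expression array does not measure.

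The array reads each gene through probes of 60 bases. The probes below, read from the array files, are 2 of genes the results turn on. Read in an open frame, that of ITGA2 matches the membrane-spanning segment of the alpha 2 subunit, and that of VAV3 part of its SH2 domain, which binds phosphorylated tyrosines. These matches rest on general knowledge of the proteins and not on an annotation of the probes. They are shown because each gave a second reading of a gene whose brighter probe showed one of the larger differences. Both are in lower case throughout.
ITGA2: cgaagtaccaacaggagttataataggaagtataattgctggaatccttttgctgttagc
VAV3: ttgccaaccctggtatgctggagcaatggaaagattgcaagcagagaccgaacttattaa

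In this report a level is the log2 of the background-corrected spot signal after each array was scaled to the same 75th percentile, and a difference is the embelin mean minus the control mean on that scale. Levels are compared within a probe and never between probes. A probe was kept when the scanner software called it well above background on the 2 arrays of 1 group or of both, and the brightest such probe stood for the gene. Between 50.3% and 66.7% of probes were well above background on an array. Control replicate 2 and embelin replicate 1 had the lower shares, so each group holds 1 array of either kind, and the difference was also taken within each pair of arrays with a like share. Under the first call rule a gene passed with a Benjamini-Hochberg adjusted p under 0.05 by limma over all genes, which 1.25% of all genes tested did with a higher and 0.561% with a lower level in embelin. Under the second, the threshold the study names, a gene passed with a difference of at least 2-fold and an unadjusted p under 0.05, here also by limma, which 4.27% did upward and 3.99% downward. The epithelial markers KRT8, KRT18, KRT19, EPCAM and CDH1 were well above background on all 4 arrays and none of the 5 passed either rule. Of the 5 fibroblast markers only COL1A1 was tested, at 6.38 and 6.27 in control and 7.56 and 7.69 in embelin, and it passed the second rule alone (difference 1.30, adjusted p = 0.0547 by limma). The summed linear signal of these 5 markers was 114 to 290 in control and 231 to 694 in embelin, which overlapped, 2 of the 5 were well above background on no array, and their part in the differences below was not tested. None of the 5 endothelial markers was tested, and of the 5 leukocyte markers 3 were. CD14 and CD79A, well above background on all 4 arrays, differed by -0.60 and -0.13. CD3E, well above background on 1 of 2 control arrays, differed by 1.25. None of these passed either rule. The summed linear signal of the 5 leukocyte markers was 1333 to 1490 in control and 1047 to 1439 in embelin, which overlapped. Their part in the differences below was not tested.

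Of the 46 genes tested, 5 passed a threshold. The integrin subunit gene ITGB3 rose and the exchange factor gene VAV3 fell under the first rule. Of these, ITGB3 entered the test only through its embelin arrays, so the filter favoured a higher embelin level in it. ITGA2 and CRKL were higher and TNS3 lower under the second rule alone. Thus 2 of 46 tested genes (4.35%) passed the first rule, against 1.81% of all genes, and 5 (10.9%) passed the second, against 8.26% of all genes. As the genes were chosen with earlier results of these data known, no share given for them is a test of the group. Over all 17652 genes tested the median difference was -0.06, with 7748 genes above 0 and 9904 below. Over the 46 it was -0.03, with 22 genes above 0 and 24 below. The embelin arrays lay wholly above the control arrays in 16 genes and wholly below in 11, together 58.7% of those tested, where 51.8% of all genes with 4 values did not overlap in either direction (21.1% above and 30.7% below).

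**Figure D1:**
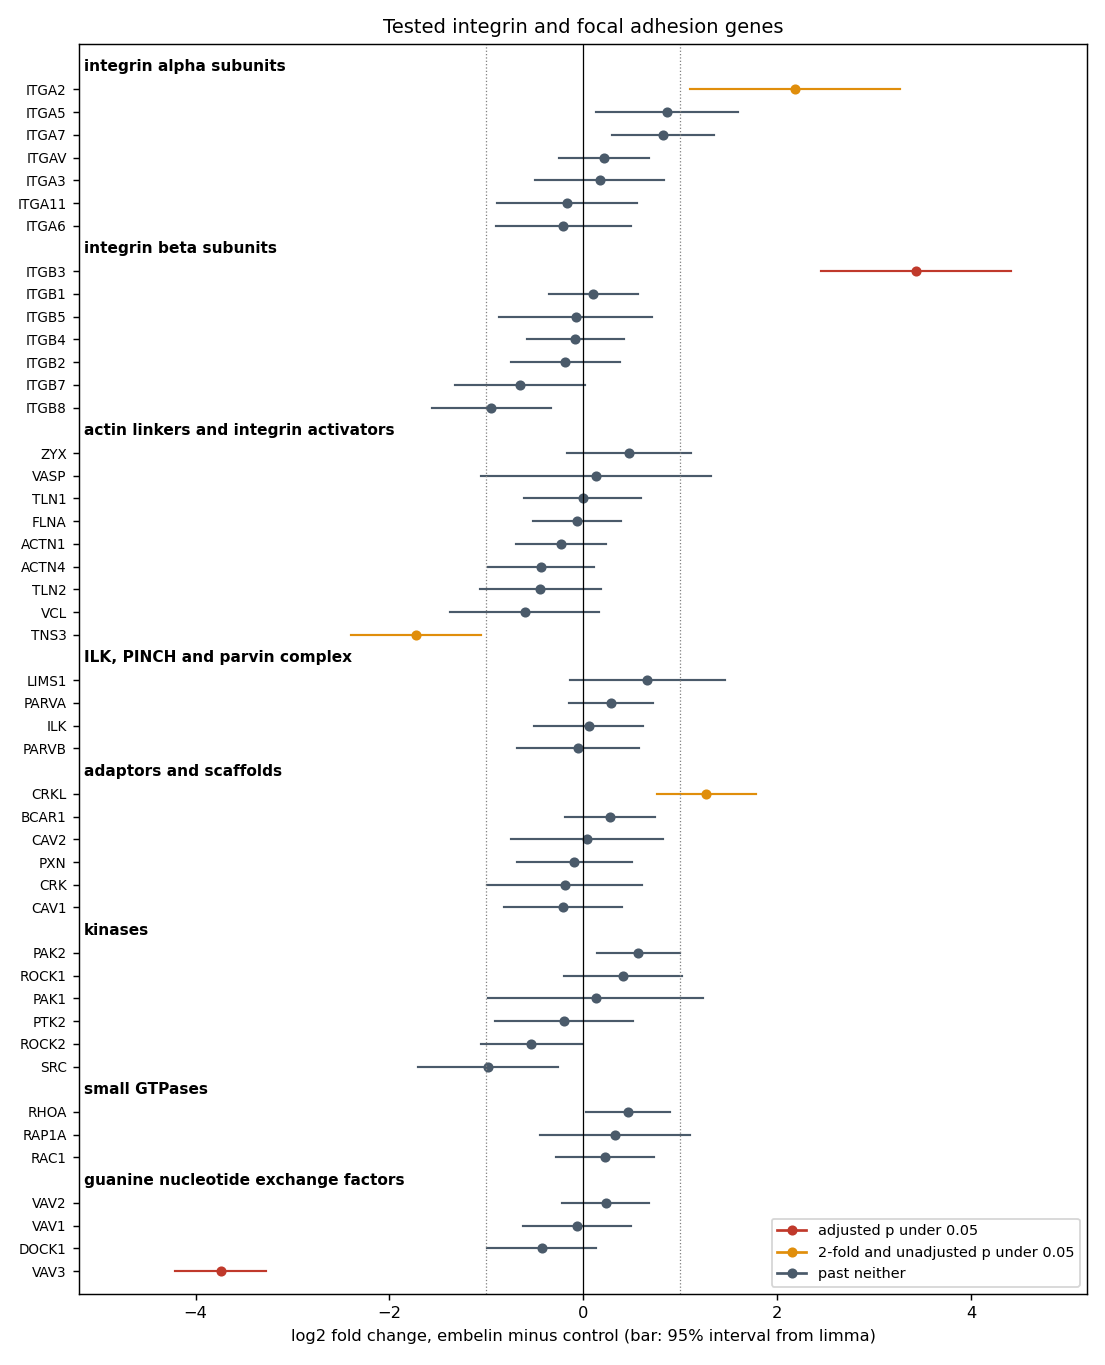
Difference in log2 signal, embelin minus control, for the 46 tested genes grouped by role, with the 95% interval from limma as a bar and dotted lines at 2-fold. ITGB3 and VAV3 lie far outside the range of -0.98 to 0.86 that holds the 41 genes past neither threshold.

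ITGB3 encodes the beta 3 integrin subunit, which with the alpha v subunit binds vitronectin, fibronectin and other ligands with an RGD motif. Its level was 6.11 and 5.31 in the control samples and 9.38 and 8.91 in the embelin samples. Both embelin arrays were above both control arrays. Control replicate 2 was not well above background, so that the gene was kept through its embelin arrays and had no value under a filter on all 4 arrays. The difference was 3.43 ± 0.36 (SE, n = 2 per group), or 10.8-fold, with an adjusted p of 0.0442 by limma. With control replicate 2 set to the lowest signal called well above background on that array, the difference was 3.16, or 8.95-fold. With normexp background correction it was 2.37, the smallest difference over the alternatives. A second kept probe read 4.67 and 3.67 in control and 7.53 and 7.18 in embelin, a difference of 3.19, and it too was well above background on 1 of 2 control arrays and was kept through the embelin arrays. The filter thus favoured a higher embelin level in both probes. In the pair of arrays with more probes well above background (control replicate 1 and embelin replicate 2) the difference was 2.80, and in the pair with fewer 4.07. The call was lost without any 1 array: the adjusted p by limma was 0.0576 without control replicate 1, 0.129 without control replicate 2, 0.217 without embelin replicate 1 and 0.102 without embelin replicate 2, while the difference stayed between 3.03 and 3.83. With any array left out, no gene of the whole array passed the first rule, although between 973 and 1430 had a higher level and between 993 and 1628 a lower one at an unadjusted p under 0.05.

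VAV3 encodes an exchange factor that loads RAC1 and RHOA with GTP once it is phosphorylated at activated receptors. Its level was 10.79 and 10.99 in the control samples and 7.17 and 7.13 in the embelin samples. The groups were far apart and the samples within each were close together. The difference was -3.74 ± 0.17 (SE, n = 2 per group), a level 13.4-fold lower with embelin, with an adjusted p of 0.0204 by limma. With normexp background correction the difference was -3.19, and over all alternatives it lay between -3.84 and -2.95. The adjusted p by limma was 0.0558 without control replicate 1, 0.108 without control replicate 2, 0.172 without embelin replicate 1 and 0.0883 without embelin replicate 2, and the difference stayed between -3.84 and -3.64. The probe in the SH2 coding sequence printed above gave 4.50 and 7.36 in control and 5.15 and 2.41 in embelin. These values overlapped, and neither embelin array was well above background, so the probe was kept through its control arrays. The measured difference was -2.15 ± 1.36 (SE, n = 2 per group, adjusted p of 0.486 by limma over probes). With each embelin array set to the lowest signal called well above background on that array, the mean level was 2.00-fold lower with embelin. That ratio of means is no bound, as control replicate 1 lay below embelin replicate 1. The other Vav genes had small differences by the same fit: -0.06 in VAV1 (adjusted p = 0.906 by limma), the form best known from blood cells, and 0.23 in VAV2 (adjusted p = 0.512 by limma). DOCK1, an exchange factor for RAC1 that works with CRK proteins, differed by -0.43 (adjusted p = 0.354 by limma).

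**Figure D2:**
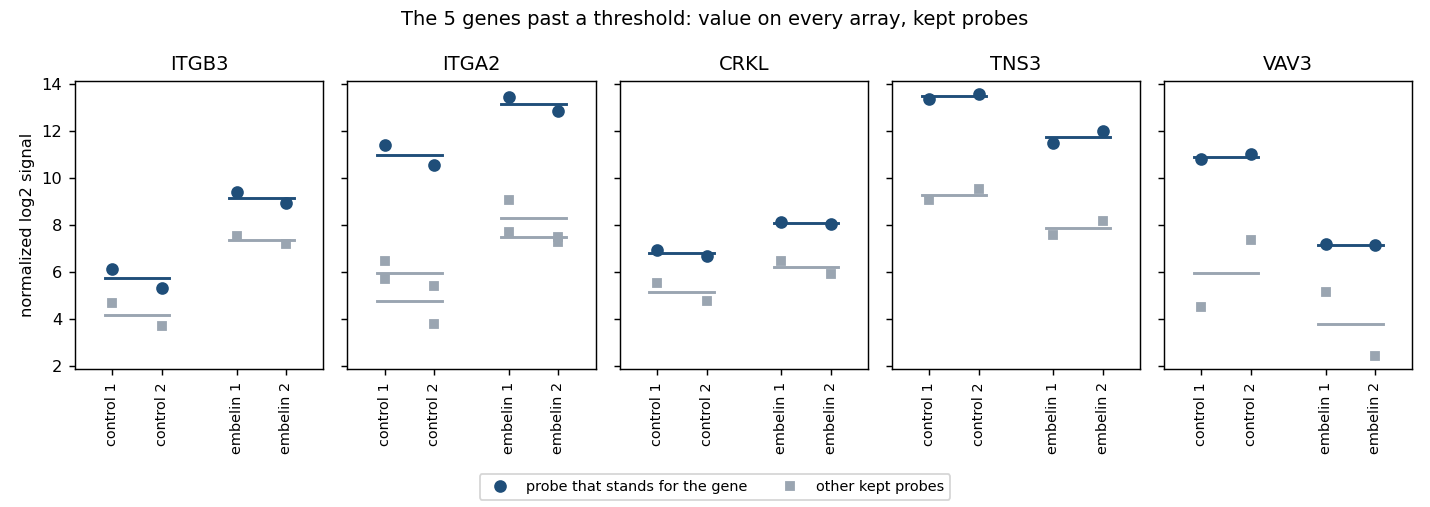
Normalized log2 signal on each of the 4 arrays for the 5 genes past either threshold, with a dark circle for the probe that stands for the gene, pale squares for its other kept probes and a line at each group mean. Control and embelin circles do not overlap in any of the 5 genes, and the pale VAV3 squares do.

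ITGA2 had the largest difference among the alpha subunits. It encodes the alpha 2 subunit, which with beta 1 forms a receptor for collagen and laminin. Its level was 11.39 and 10.53 in control and 13.44 and 12.84 in embelin, a difference of 2.18 ± 0.40 (SE, n = 2 per group), or 4.54-fold. It passed the second rule but not the first (adjusted p = 0.0884 by limma), and it did not pass the second with the methods' t-test in place of limma. The coding probe printed above gave 6.44 and 5.41 in control and 9.06 and 7.48 in embelin, a difference of 2.35, and the other kept probe a difference of 2.72. Each of these 2 had 1 of 2 control arrays well above background and was kept through its embelin arrays, so the filter favoured a higher embelin level in them. All 3 kept probes were higher in both embelin arrays than in both controls. The difference was 1.45 in the pair of arrays with more probes well above background and 2.91 in the pair with fewer.

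The other alpha subunits tested had smaller differences. ITGA5, the fibronectin receptor's alpha 5 chain, read 9.01 and 8.85 in control and 9.49 and 10.10 in embelin (difference 0.86, adjusted p = 0.205 by limma). ITGA7, a laminin-binding subunit best known from muscle, read 8.07 and 8.20 in control and 8.81 and 9.11 in embelin (difference 0.82, adjusted p = 0.133 by limma). In both genes the embelin arrays were above the control arrays, and neither passed either rule. ITGAV, the partner of beta 3, differed by 0.21 ± 0.17 (SE, n = 2 per group), with a 95% interval from -0.25 to 0.68 that leaves out a 2-fold change. ITGA3, ITGA6 and ITGA11 differed by 0.17, -0.21 and -0.17. Over the 7 alpha subunits tested the median difference was 0.21, with 5 above 0 and 2 below. The other 5 alpha subunits, ITGA1, ITGA4, ITGA8, ITGA9 and ITGA10, were not tested because no probe of theirs was well above background on both arrays of a group.

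Among the beta subunits, ITGB3 stood alone. ITGB1, the common partner of most alpha chains, read 17.24 and 17.23 in control and 17.42 and 17.26 in embelin, a difference of 0.10 with a 95% interval from -0.35 to 0.56. Its 4 kept probes all differed by less than 2-fold. ITGB2, ITGB4 and ITGB5 differed by -0.19, -0.08 and -0.08. ITGB7, a partner of alpha 4 and alpha E on lymphocytes, differed by -0.65 (adjusted p = 0.263 by limma). ITGB8, which with alpha v binds latent TGF-beta, read 6.57 and 6.12 in control and 5.33 and 5.47 in embelin, a difference of -0.95 (adjusted p = 0.134 by limma). Only 1 of its 2 embelin arrays was well above background, and its second kept probe showed no such separation, with 4.44 and 7.08 in control against 7.56 and 3.69 in embelin. The median over the 7 beta subunits tested was -0.08, with 2 above 0 and 5 below. ITGB6, whose 1 probe was well above background on 1 array of each group, was not tested.

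TNS3 was the one actin linker past a threshold. It encodes tensin 3, an adhesion protein that binds the tails of beta integrins. Its level was 13.37 and 13.56 in control and 11.48 and 11.99 in embelin, a difference of -1.72 ± 0.25 (SE, n = 2 per group), a level 3.30-fold lower with embelin. Both embelin arrays were below both controls, and the gene passed the second rule but not the first (adjusted p = 0.0623 by limma). A second kept probe differed by -1.41, and the difference was -1.37 in the pair of arrays with more probes well above background and -2.07 in the pair with fewer. The related TNS1 was not tested, as none of its 4 probes was well above background on both arrays of a group. Of the 9 actin linkers and activators tested, 7 were below 0, where 9904 of all 17652 genes were, and the median of the 9 was -0.23. Vinculin (VCL) differed by -0.61 (adjusted p = 0.345 by limma), and its embelin arrays, at 11.77 and 12.40, were below its controls, at 12.80 and 12.57. The alpha-actinins ACTN1 and ACTN4 differed by -0.23 and -0.44, TLN2 by -0.44 and filamin A (FLNA) by -0.07. Talin 1 (TLN1), which switches integrins to their active shape, differed by -0.01 with a 95% interval from -0.61 to 0.59. Zyxin (ZYX) and VASP, which act on actin assembly, differed by 0.47 and 0.13.

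CRKL was the one adaptor past a threshold. It links phosphorylated p130Cas and paxillin to DOCK1 and to an exchange factor of RAP1. Its level was 6.94 and 6.65 in control and 8.09 and 8.03 in embelin, a difference of 1.27 ± 0.19 (SE, n = 2 per group), or 2.41-fold. The groups did not overlap, and the gene passed the second rule but not the first (adjusted p = 0.0651 by limma). With normexp the difference was 0.87, under 2-fold. The second kept probe, well above background on 1 of 2 control arrays and kept through its embelin arrays, differed by 1.04. The difference of the first was 1.09 in the pair of arrays with more probes well above background and 1.44 in the pair with fewer. Its close relative CRK differed by -0.19 with a 95% interval from -0.99 to 0.60. Paxillin (PXN), BCAR1 and the caveolins CAV1 and CAV2 differed by -0.10, 0.27, -0.21 and 0.04. In the complex that ties beta integrin tails to actin, ILK, PARVA, PARVB and LIMS1 (PINCH1) differed by 0.05, 0.29, -0.06 and 0.66, and none passed either rule.

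No kinase passed either rule. SRC came closest, with 11.16 and 11.74 in control and 10.58 and 10.36 in embelin. Both embelin arrays were below both controls, and the difference was -0.98 ± 0.26 (SE, n = 2 per group), just under 2-fold, with an adjusted p of 0.164 by limma. FAK (PTK2) read 10.63 and 10.32 in control and 10.02 and 10.54 in embelin, which overlapped, with a 95% interval of the difference from -0.92 to 0.52. The kinases ROCK1 and ROCK2, which raise myosin activity downstream of RHOA, differed by 0.41 and -0.54. The second kept probe of ROCK2 differed by -0.13, with groups that overlapped. PAK2, a target of RAC1, read 10.89 and 10.90 in control and 11.49 and 11.43 in embelin, a difference of 0.57 (adjusted p = 0.172 by limma). Its second kept probe differed by 0.23, with groups that overlapped. PAK1 differed by 0.13. All 3 small GTPases had differences above 0, where 7748 of all 17652 genes did, and none of the 3 passed either rule. RHOA, which drives stress fibre formation, read 14.49 and 14.40 in control and 14.91 and 14.91 in embelin (difference 0.46, adjusted p = 0.238 by limma), RAP1A differed by 0.33 and RAC1 by 0.22.

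For 27 of the 41 genes past neither threshold, the 95% interval of the difference lay within 2-fold in either direction. For the other 14 it reached 2-fold, so that a change of that size was not left out by 2 samples per group: ITGA5, ITGA7, ITGB7, ITGB8, VCL, TLN2, ZYX, LIMS1, SRC, ROCK1, ROCK2, VASP, PAK1 and RAP1A. Of the 41, 7 had an unadjusted p under 0.05 by limma, which made 12 of all 46 tested (26.1%), against 19.5% of all genes. Of the genes tested, 25 had several kept probes, over which the difference had a median range of 0.13. The probes differed in sign in 3 of these, PARVA, PXN and TLN1.

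**Figure D3:**
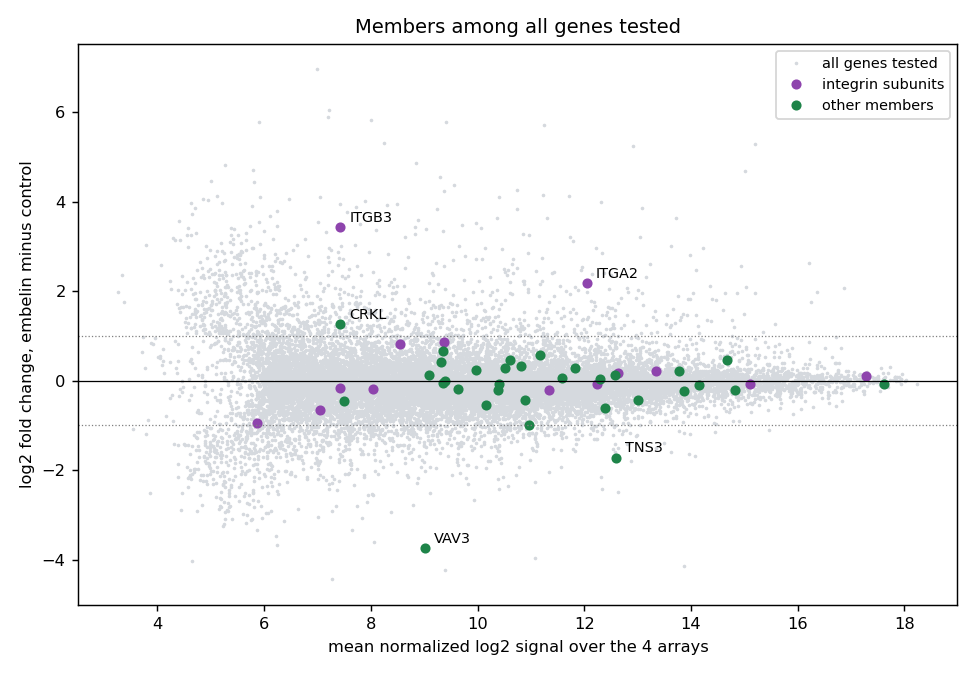
Difference in log2 signal, embelin minus control, against the mean log2 signal over the 4 arrays for all 17652 genes tested (grey), the integrin subunits (purple) and the other integrin and adhesion genes (green), with dotted lines at 2-fold. The 5 named genes lie outside the 2-fold lines at both lower and higher signal, and the other 41 lie inside them.

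The windows of 250 bases before the annotated transcription start were taken from RefSeq (GRCh38.p14), which gave 1 or more starts for 43 of the 53 genes, and were searched on both strands for the AP-1 motif TGANTCA, the CRE TGACGTCA, the HRE core ACGTG and the GC box GGGCGG. These letters were found in 6.57%, 1.65%, 18.5% and 42.6% of all 35116 windows. No start was listed for ITGB3. The ITGA2 window at chr5:52989102-52989351, plus strand, held 4 GC boxes and no match to the other motifs. The 1 window listed for VAV3, at chr1:107688500-107688749, minus strand, lies inside the annotated gene, so it precedes an inner start of a shorter transcript, and it held 1 AP-1 match, 116 bases before that start. The CRKL window held none of the 4 motifs, and of the 3 windows of TNS3 1 held GC boxes and none the other motifs. The windows are shown for the 2 genes whose probes are printed above, 5′ to 3′, with the GC boxes of ITGA2 and the AP-1 match of VAV3 in capitals, and a match describes the letters only.
ITGA2: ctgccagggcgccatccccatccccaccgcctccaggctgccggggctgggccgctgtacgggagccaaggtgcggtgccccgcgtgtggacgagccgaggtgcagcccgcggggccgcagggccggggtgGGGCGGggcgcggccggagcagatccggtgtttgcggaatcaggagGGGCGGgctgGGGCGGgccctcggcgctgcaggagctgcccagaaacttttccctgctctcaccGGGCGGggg
VAV3: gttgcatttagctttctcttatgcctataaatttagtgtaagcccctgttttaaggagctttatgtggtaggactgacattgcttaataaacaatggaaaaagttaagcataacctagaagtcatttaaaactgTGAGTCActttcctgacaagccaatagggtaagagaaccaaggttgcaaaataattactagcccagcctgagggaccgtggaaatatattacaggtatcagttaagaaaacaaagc

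Further genes of the pathway were counted from 4 lists, of which 88 genes were tested: other integrin subunits, other focal adhesion proteins, other kinases, phosphatases and GTPases with their regulators, and integrin ligands other than collagens and laminins. Under the first rule 1 rose and 2 fell (3.41%, against 1.81% of all genes), and under the second 2 were higher and 3 lower (5.68%, against 8.26% of all genes), with a median difference of -0.01. These lists too were chosen with earlier results of these data known, so their shares are no test of the pathway. RHOB, a short-lived relative of RHOA, had 6.16 and 6.66 in control and 9.66 and 9.91 in embelin and rose 10.4-fold (difference 3.38 ± 0.25, SE, n = 2 per group, adjusted p = 0.0259 by limma). TNS2, the gene of another tensin, had 9.34 and 9.70 in control and 7.80 and 7.76 in embelin and fell by 1.74 on the log2 scale (adjusted p = 0.0482 by limma). KANK2, whose protein binds talin at the rim of adhesions, had 14.07 and 14.12 in control and 12.60 and 12.59 in embelin and fell by 1.50 (adjusted p = 0.0448 by limma).

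In RHOB, TNS2 and KANK2 the groups did not overlap and each embelin pair lay close together. With 1 array left out, the difference was 3.13 to 3.62 in RHOB, -1.92 to -1.56 in TNS2 and -1.53 to -1.48 in KANK2, and none of the 3 passed the first rule, as for every gene of the array. PTK2B, which encodes PYK2, the relative of FAK, had 8.26 and 8.28 in control and 6.56 and 7.37 in embelin (difference -1.30, adjusted p = 0.143 by limma). The ligand gene TNR had 5.91 and 3.86 in control, where 1 of 2 arrays was well above background, and 6.92 and 7.42 in embelin (difference 2.28, adjusted p = 0.220 by limma). The other list of integrin subunits had 3 of 6 genes tested and none past either rule. These included the other partner of beta 3, ITGA2B, at 6.49 and 6.29 in control and 5.32 and 5.99 in embelin (difference -0.74), with 1 of 2 embelin arrays well above background.

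**Figure D4:**
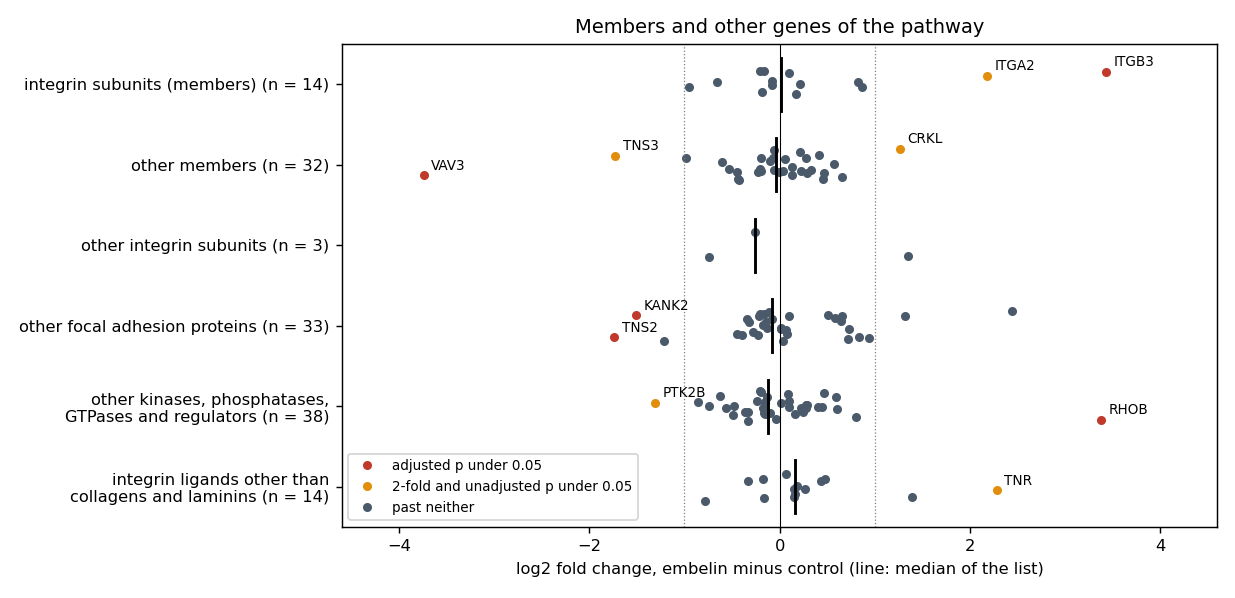
Difference in log2 signal, embelin minus control, for each tested integrin subunit and other adhesion gene of the group (n = 14 and n = 32) and for the 4 further lists of the pathway, with a line at each list's median and dotted lines at 2-fold. The medians of the 6 lists lie between -0.25 (other integrin subunits, n = 3) and 0.16 (ligands), and over all lists genes past a threshold lie on both sides of 0.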

How the data were processed

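Expression was measured in 2 control and 2 embelin samples, 1 single-colour (Cy3) Agilent array each. The authors deposited spot intensities written by Feature Extraction (per the file headers, version 10.7.3.1) that were background-subtracted and detrended, with no normalization between arrays. Here gProcessedSignal was scaled to equal 75th percentiles (raw values 601 to 739), set to at least 1 and log2-transformed. Outlier spots were dropped (47 to 743 per array) and the spots of a probe averaged. No spot was saturated. The 26146 probes well above background on the 2 arrays of 1 group or of both were kept and named by accession or current symbol where RefSeq tables allowed, and the brightest stood for the gene.

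Groups were compared with lmFit and eBayes of limma 3.58.1 in R 4.3.3 over 17652 genes, with Benjamini-Hochberg adjustment. Precision was limited by the number of arrays (median pooled SD over genes 0.21 in log2). The fit was tested on simulated data. The integrin and adhesion genes, the further lists and the tests were chosen with earlier results of these data known. Every gene past a threshold is given array by array, and the others by role, by their difference and counts. Alternatives were normexp, quantile normalization, the deposited probe table, no filter, a filter on all 4 arrays, the methods' t-test, trend and robust eBayes, a replicate block, other probe rules, slide position and leaving out each array. The differences within pairs of arrays with a like share of probes well above background were added after seeing the data. The controls lay at slide positions 4 and 1 and the embelin samples at 2 and 3, so the embelin arrays lay between the control arrays.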

Additional observations from a re-analysis of the deposited data

How the results depend on the processing

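The differences of ITGB3, VAV3, ITGA2, CRKL and TNS3 kept their direction under every alternative that gave them a value. Their calls did not. Against 1 gene higher and 1 lower after adjustment by limma, 2 and 2 passed with normexp, with the filter on all 4 arrays and with trend and robust eBayes, while 0 and 0 passed without a filter, with the methods' t-test, with the mean over probes, with slide position as a covariate and with any 1 array left out (range 0 to 0 in both directions), and 0 and 1 with the deposited table. The filter on all 4 arrays removed ITGB3 and brought in ITGA2, CRKL and TNS3. The lowest and highest adjusted p over all alternatives were 0.00681 and 0.386 for ITGB3 and 0.00082 and 0.327 for VAV3. Over all genes, 221 rose and 99 fell, against 566 and 495 with trend and robust eBayes, 422 and 277 with normexp, 419 and 345 with the filter on all 4 arrays, 177 and 63 with quantile normalization, 126 and 33 with the deposited table, 217 and 65 probes with each probe on its own, and 0 in the alternatives named for 0 and 0 above except the mean over probes (162 and 56).

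The replicate numbers are shared between the groups, but samples with the same number were not shown to be paired: the correlation of their deviations from the group means was 0.175 over genes, with 2 pairs. With the number as a replicate block, 0 of these genes passed after adjustment in either direction (adjusted p = 0.0686 for ITGB3 and 0.0669 for VAV3 by limma, with 0 of all genes called and 1673 higher and 2069 lower at an unadjusted p under 0.05), and the counts of 3 higher and 2 lower at 2-fold with an unadjusted p under 0.05 did not move. Those counts were 2 and 2 with normexp (without CRKL), with the methods' t-test (without ITGA2) and with the filter on all 4 arrays (without ITGB3), 3 and 3 with quantile normalization (with ITGB8), and 4 and 2 with no filter (with TNS1). With 1 array left out, these counts were 3 to 4 and 3 to 3, and the median difference was -0.15 to 0.10.

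The direction reversed in 18 of the 46 genes under at least 1 alternative, in 33 values in all, none of them in the 5 genes past a threshold. In this count each gene had 1 value per alternative. With each probe on its own, that value was of the probe with the lowest p by limma. The other kept probe of PARVA, at -0.11, was therefore not counted. With normexp ITGB8 came to 0.0164 and PARVB to 0.00099, and with quantile normalization TLN1 to 0.0174. With the mean over probes PXN came to 0.0938 and TLN1 to 0.0218, and with each probe on its own to 0.20 and 0.0507. With 1 array left out the ranges that crossed 0 were -0.48 to 0.0676 for ITGA6, -0.10 to 0.21 for ILK, -0.22 to 0.29 for CAV2, -0.32 to 0.57 for PAK1, -0.19 to 0.0212 for ITGB4, -0.37 to 0.22 for ITGB5, -0.30 to 0.11 for PXN, -0.27 to 0.16 for PARVB, -0.15 to 0.0066 for FLNA, -0.46 to 0.0741 for CRK, -0.23 to 0.11 for VAV1, -0.41 to 0.66 for VASP, -0.47 to 0.14 for ITGA11, -0.46 to 0.0614 for PTK2, -0.23 to 0.22 for TLN1, -0.43 to 0.0152 for CAV1 and -0.0697 to 0.41 for ITGA3. With a lone array in a group, limma takes its spread from the other group. The cause of these shifts was not tested. Signal close to background limits the values of ITGB3 in control and of ITGB8 in embelin.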
